A study of Mus musculus with 48 samples.

Results

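The 4 libraries described here are the controls (Con), taken here as untreated, of a small-molecule experiment on mouse embryonic stem cells (ESCs), 2 libraries labelled 24 h and 2 labelled 48 h, out of 48 samples in the series. The rule that picks them reads their labels and no measured value. The cells, labelled as strain C57BL/6 and as derived from ESCs, came per the study's methods from female ESC lines kept on inactivated feeder fibroblasts. They had been grown with the inhibitor pair known as 2i together with leukaemia inhibitory factor (LIF), dissociated, left on plastic for 30 min so that feeders would attach, and seeded on human plasma fibronectin without 2i and LIF. The titles give the controls only as Con with a time, and the study's text places its control cells at the start of induction, so whether Con cells were kept for 24 h and 48 h in this medium without a small molecule is not settled by the sources used here, and the times are those of the labels. The 3 treated arms of the same design, with 2 libraries each at 24 h and at 48 h, received vitamin C (Vc), the retinoic acid receptor agonist AM580, or both (V580). The labels name the source of all of these libraries as GSCLCs, cells resembling gonadal somatic cells, Con included. Which ESC line was used, and whether the libraries of a group came from separate cultures, is not given in the sources used here, so p-values measure only the spread between libraries.

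In the naive state that 2i and LIF hold, ESCs keep a network of transcription factors such as Nanog, Esrrb, Tfcp2l1 and the Klf factors, their genome is poorly methylated, and both X chromosomes of female cells can be active. When the inhibitors and LIF are withdrawn, signalling through FGF and ERK is released, the naive factors are silenced, Pou5f1 and Sox2 are kept for a while, and formative genes such as Fgf5, Dnmt3a and Dnmt3b come on before cells take up a germ layer. Nodal signalling, held in check by its secreted inhibitors Lefty1 and Lefty2, is active on the way. These steps are background for the gene lists below, which include markers of the feeder cells and of lineages that such a culture could hold.

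RNA was measured as FPKM, fragments scaled to the length of the gene and to the library, for 13682 genes. The reads on these genes, recovered from the FPKM and the gene lengths, came to between 19.8 and 21.96 M in the 4 Con libraries and between 16.9 and 22.8 M in the 16 libraries of the experiment. Across the 10644 genes that passed the filter on low values, Pearson's r of log2(FPKM + 1) was 0.998 between the 24 h libraries and 0.999 between the 48 h libraries, against 0.952 to 0.955 between a 24 h and a 48 h library. No library stood apart from its pair, although at 24 h the ratio of replicate 1 to replicate 2 rose with gene length (Spearman's rho 0.441 across 10620 genes), which did not hold for the difference between the times (rho 0.043). Several genes are listed at 0 in every Con library, among them Atp5o, a subunit of ATP synthase that every cell uses, so a value of 0 is taken only as listed at 0.

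The label of ESC-derived cells was borne out by the level of Pou5f1, at 692 and 758 FPKM at 24 h and 451 and 461 FPKM at 48 h. Of the gonadal markers, Foxl2 and Nr5a1 were near 0, Gata4 was low and Wt1 was present. Foxl2, the granulosa cell factor, lay at 0.125 and 0.0655 FPKM at 24 h and 0.124 and 0.0146 FPKM at 48 h, where the 3 libraries of E12.5 gonadal cells in the same table held 27.6, 26.1 and 15.7 FPKM. Nr5a1, which drives gonadal steroid genes, was listed at 0 in both 24 h libraries and at 0.0593 and 0.0112 FPKM at 48 h, against 71.7, 95.1 and 67.8 FPKM in the E12.5 gonadal cells. Gata4, which the study uses with Foxl2 as a marker of these cells, lay at 0.3 and 0.287 FPKM at 24 h. At 48 h it lay at 0.863 and 0.742 FPKM, against 135, 147 and 148 FPKM in the E12.5 gonadal cells. Wt1, a factor of the early gonad and kidney, was present at 8.87 and 8.46 FPKM at 24 h and 9.86 and 10.3 FPKM at 48 h. The E12.5 gonadal cells held 67.0, 64.5 and 86.0 FPKM of Wt1.

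Differences are given as the mean log2(FPKM + 1) at 48 h minus that at 24 h, from a limma model of all 16 libraries. A gene was called, and is said here to have risen or fallen, where its Benjamini-Hochberg adjusted p was below 0.05 and its difference at least 2-fold on this scale. The added 1 makes a difference of a low gene smaller than the ratio of its FPKM, and every statement that a gene reached or fell short of 2-fold refers to log2(FPKM + 1). Of the 10644 genes tested, 268 rose (2.52%) and 554 fell (5.2%) between 24 h and 48 h, 822 in all (7.72%). A further, weaker change was broad, since 7028 genes (66.0%) passed the adjusted p alone, 3453 of them higher (32.4%) and 3575 lower (33.6%) at 48 h. The median size of a difference was 0.25 on the log2 scale and the median SE 0.067. At 4-fold or more the asymmetry was larger, with 18 genes risen and 88 fallen, and at 8-fold or more 1 gene had risen and 7 had fallen. In all 822 called genes the 2 libraries of one time lay outside the range of the other time, as they did in 8723 of all genes tested (82.0%). With 2 libraries against 2 an exact two-sided permutation test of a single gene cannot go below p = 0.333, so the calls rest on the model across genes.

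**Figure D1:**
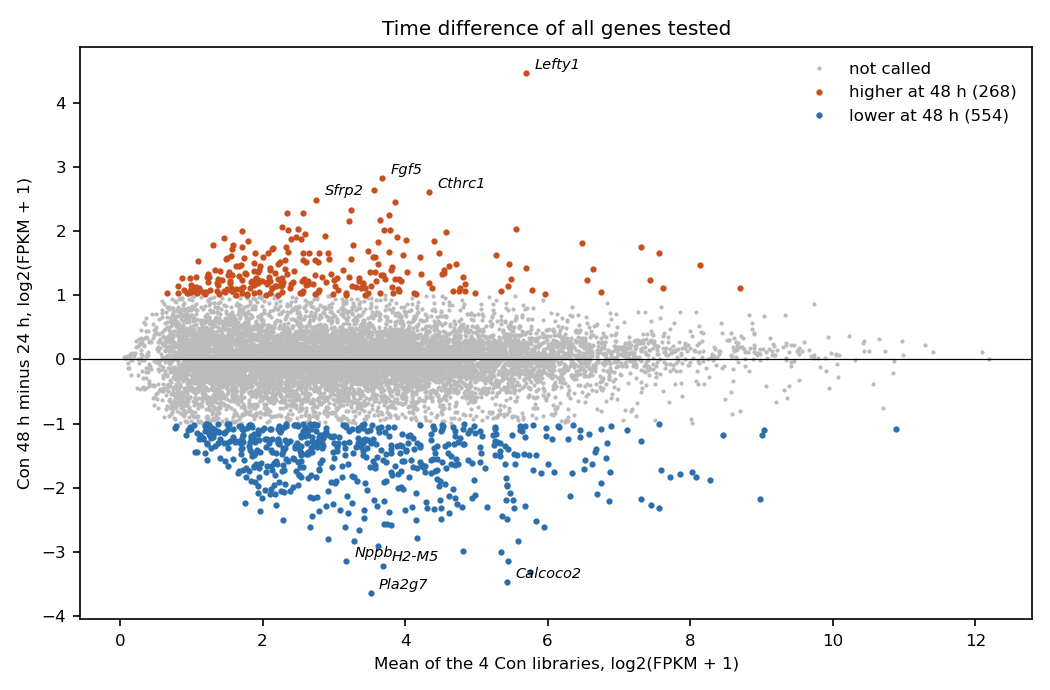
Each point is a tested gene, with the mean of log2(FPKM + 1) over the 4 Con libraries on the x axis and the difference of 48 h minus 24 h on the y axis, called genes in colour. The 554 genes that fell outnumber the 268 that rose, and Lefty1 lies alone at the top, at 4.46.

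The gene with the largest rise was Lefty1, which encodes a secreted inhibitor of Nodal and is itself switched on by Nodal signalling (chr1:180935022-180938400, plus strand, GRCm38). Its libraries read 3.53 and 3.46 FPKM at 24 h and 99.9 and 96.2 FPKM at 48 h, a ratio of mean FPKM of 28.1 at the later over the earlier time (log2 difference 4.46, SE 0.0445, adjusted p 9.73e-18). Fgf5, the FGF ligand that marks post-implantation epiblast (chr5:98254184-98277030, plus strand), read 1.85 and 2.47 FPKM at 24 h and 22 and 20.7 FPKM at 48 h (log2 difference 2.83, SE 0.088, adjusted p 1.26e-12). The rule that named the 12 largest rises and the 12 largest falls required that the times not overlap. Cthrc1, a secreted protein of the extracellular space, went from 4.73 and 4.69 to 33.8 and 33.5 FPKM (log2 difference 2.60). Sfrp2, a secreted modulator of WNT signalling, went from 1.11 and 0.966 to 9.93 and 11 FPKM (2.49). Cldn7, a claudin of tight junctions, went from 3.26 and 3.72 to 23.6 and 23.4 FPKM (2.45). The other genes of the 12 were Sema6a, a transmembrane semaphorin, at 2.64, the germ cell and early embryo factor Dppa3 at 2.33, Fndc3c1 at 2.29, the tubulin Tubb4a at 2.29, Trh, the precursor of thyrotropin-releasing hormone, at 2.25, the intermediate filament gene Prph at 2.17 and the synaptotagmin Syt11 at 2.16, all as log2 differences.

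Among the genes that fell, Pla2g7, which encodes a secreted phospholipase (chr17:43568098-43612201, plus strand), read 19.9 and 20.5 FPKM at 24 h and 0.606 and 0.801 FPKM at 48 h, a ratio of mean FPKM of 28.7 at the earlier over the later time (log2 difference -3.64, SE 0.102, adjusted p 4.69e-13). Calcoco2, an autophagy receptor, went from 76.2 and 79.7 to 6.52 and 5.74 FPKM (log2 difference -3.47, SE 0.0689, adjusted p 2.22e-14). Nppb, the precursor of B-type natriuretic peptide (chr4:147985788-147987205, plus strand), read 14.7 and 15.7 FPKM at 24 h and 0.773 and 0.912 FPKM at 48 h (log2 difference -3.14, SE 0.105, adjusted p 2.47e-12). Plaur, the receptor of urokinase (chr7:24462484-24475968, plus strand), read 82.4 and 83.2 FPKM at 24 h and 10.5 and 11.1 FPKM at 48 h (log2 difference -2.83, SE 0.0583, adjusted p 2.86e-14). Htra1, a secreted serine protease, had a log2 difference of -3.0 and Laptm5, a lysosomal membrane protein, of -3.14. The galectin Lgals3 was at -2.90, the neurotrophin receptor Ngfr at -2.83 and H2-M5, a non-classical histocompatibility gene, at -3.21. Arl14epl at -3.31, Dusp27 at -2.98 and the cytochrome P450 gene Cyp2s1 at -2.80 completed the 12 largest falls.

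The core pluripotency genes stayed expressed at both times and were mostly lower at 48 h. Of 12 tested, 0 rose and 2 fell, where 2.52% of all genes tested rose and 5.2% fell. In this list 2 passed the adjusted p in the higher and 9 in the lower direction, against 32.4% and 33.6% of all genes tested. The median was -0.47, where all genes tested had a median of 0.0017. The counts of every list below are to be read beside these shares. Pou5f1, whose values are given above, was lower in both 48 h libraries, short of 2-fold (log2 difference -0.67, SE 0.0545, adjusted p 5.21e-08). Sox2, its partner factor, read 159.9 and 157 FPKM at 24 h and 76.2 and 77.2 FPKM at 48 h and passed 2-fold (log2 difference -1.04, SE 0.0385, adjusted p 7.29e-12). Dppa5a, an RNA-binding protein of ESCs with near-identical copies elsewhere in the genome that make its reads uncertain, fell from 2467 and 2701 to 1199 and 1233 FPKM (-1.09). Tdgf1, the Nodal co-receptor also known as Cripto, was among the 2 genes that were higher, at 367 and 385 FPKM at 24 h and 550.5 and 560.2 FPKM at 48 h (log2 difference 0.56). The other was the RNA-binding protein Lin28a, at 0.21. Also lower were Utf1 at -0.42, Sall4 at -0.55, L1td1 at -0.51 and Trim28 at -0.59, each passing the adjusted p below 2-fold.

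Most naive factors fell. Of 18 tested, 14 fell, 1 rose and 17 passed the adjusted p in the lower direction, with a median log2 difference of -1.39. Esrrb, an orphan nuclear receptor of the naive network, read 37.3 and 37.8 FPKM at 24 h and 5.82 and 5.96 FPKM at 48 h (log2 difference -2.49, SE 0.0578, adjusted p 1.08e-13). Klf4 read 14.8 and 14.1 FPKM at 24 h and 2.16 and 1.73 FPKM at 48 h (log2 difference -2.40, SE 0.0775, adjusted p 1.86e-12). Tfcp2l1, a target of LIF signalling through Stat3, read 12.3 and 10.3 FPKM at 24 h and 1.52 and 1.52 FPKM at 48 h (log2 difference -2.28, SE 0.0969, adjusted p 3.35e-11). In all of these both 24 h libraries were several-fold above both 48 h libraries. Klf5 went from 27.7 and 27.3 to 4.41 and 5.2 FPKM (-2.30), Klf2 from 32.7 and 30.6 to 8.96 and 11.5 FPKM (-1.55) and Tbx3 from 3.36 and 2.97 to 0.349 and 0.423 FPKM (-1.59). Fbxo15, an Oct4 target and reporter locus of ESCs, went from 19.3 and 21.3 to 3.70 and 3.58 FPKM (-2.20). Zfp57, which guards methylation at imprinted genes, went from 63.9 and 67.2 to 17.2 and 18 FPKM (-1.84), and Zfp42, also known as Rex1, from 42.4 and 46.6 to 19.5 and 20.4 FPKM (-1.12). Nanog read 32.5 and 31.9 FPKM at 24 h and 18.1 and 17.7 FPKM at 48 h (log2 difference -0.81, SE 0.049, adjusted p 1.57e-09) and did not reach 2-fold. Fgf4 at -0.18 and Gbx2 at -0.35 were also below 2-fold. Dppa3 went the opposite way, at 1.65 and 2.63 FPKM at 24 h and 15.8 and 13.6 FPKM at 48 h (log2 difference 2.33, SE 0.156, adjusted p 5.22e-09), the member that rose, and pseudogene copies leave its reads uncertain. Prdm14, at 0.278 and 0.416 FPKM at 24 h and 0.196 and 0.13 FPKM at 48 h, was below the filter, and Nr0b1 is not among the genes of the table used here.

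Of 12 formative genes tested 4 rose and 1 fell, with a median of 0.26. Those that rose were Fgf5, Sall2, a zinc finger factor, at 4.65 and 4.35 FPKM at 24 h and 21.1 and 21.3 FPKM at 48 h (log2 difference 2.01, SE 0.0564, adjusted p 4.69e-13), and both de novo DNA methyltransferases. Dnmt3b read 151 and 145 FPKM at 24 h and 403 and 423 FPKM at 48 h (log2 difference 1.47, SE 0.0391, adjusted p 2.79e-13) and Dnmt3a 39.8 and 40.9 FPKM at 24 h and 81.5 and 84 FPKM at 48 h (log2 difference 1.02, SE 0.0438, adjusted p 3.81e-11). Foxd3, a forkhead factor of the epiblast and neural crest, was lower at -0.60 and the ETS factor Etv4 at -0.96, both short of 2-fold, and Etv5 was at 0.14. Lef1, a transcriptional partner of beta-catenin, was at 0.02 and did not pass. Otx2 and Pou3f1, 2 defining genes of the formative state, are not among the genes of the table used here.

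**Figure D2:**
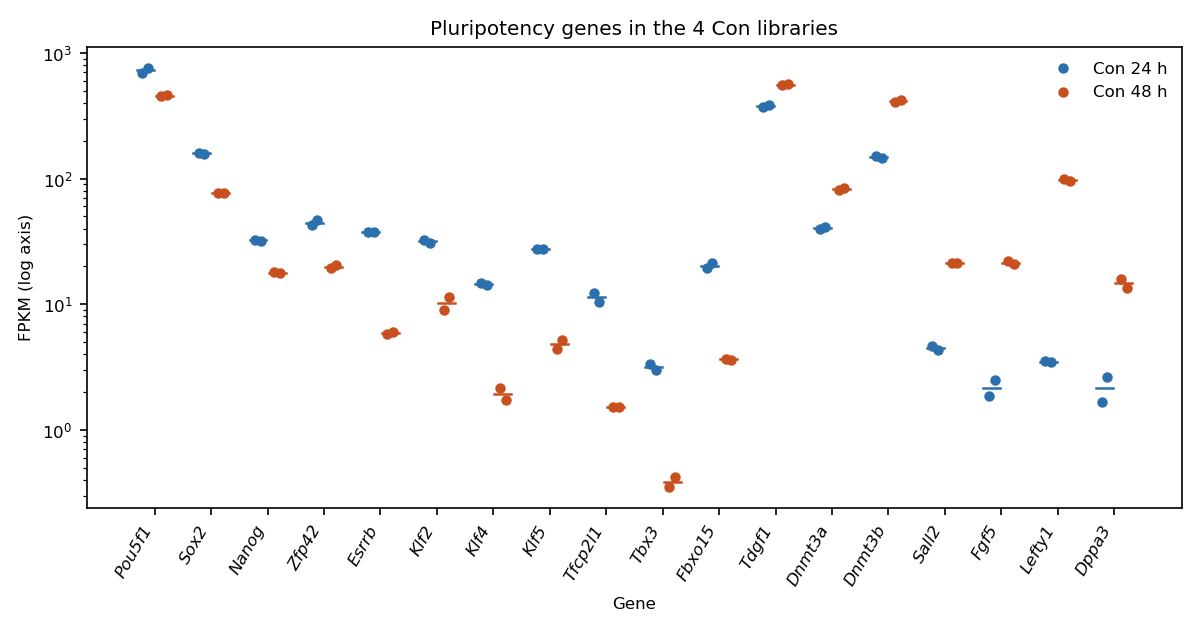
FPKM, on a log axis, of 18 pluripotency genes in the 4 Con libraries, blue for 24 h and orange for 48 h, with a bar at the mean of each pair. Pou5f1 is still at 451 and 461 FPKM at 48 h, the naive factors from Esrrb to Fbxo15 drop to between 0.349 and 11.5 FPKM, and Dnmt3b, Fgf5, Lefty1 and Dppa3 lie higher at 48 h.

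Enzymes of DNA methylation moved in different directions. Of 13 tested, 2 rose and 3 fell, with a median of -0.01. Beside the rise of Dnmt3a and Dnmt3b, their cofactor Dnmt3l fell from 686 and 732 to 299 and 330.1 FPKM (log2 difference -1.17, SE 0.0603, adjusted p 2.71e-10). Tet2, which oxidises 5-methylcytosine, fell from 3.84 and 2.85 to 0.728 and 0.8 FPKM (-1.29), whereas Tet1 read 30.7 and 22.9 FPKM at 24 h and 16.9 and 15 FPKM at 48 h (-0.70, short of 2-fold) and differed between the 24 h libraries. Gadd45b, a stress gene also tied to demethylation, fell from 18.7 and 20.7 to 4.18 and 4.78 FPKM (-1.92). The maintenance methyltransferase Dnmt1 was at -0.01 and its partner Uhrf1 at -0.13. Of 18 listed germline genes whose promoters are held by DNA methylation in somatic cells, only 5 are among the genes of the table used here. Mael and Sycp1 are among those missing. Of the 5, all tested, 3 fell and 0 rose, with a median of -1.03. By the adjusted p alone 3 were lower and 2 higher. Tex19.1 went from 190.0 and 191 to 38.2 and 43.5 FPKM (log2 difference -2.20, SE 0.0528, adjusted p 1.21e-13), Dazl, an RNA-binding protein of germ cells, from 12.2 and 12.2 to 3.29 and 3.07 FPKM (-1.66) and Ddx4, also known as Vasa, from 27.2 and 27 to 12.7 and 12.8 FPKM (-1.03), while Sycp3 of the synaptonemal complex was higher at 1.93 and 1.48 FPKM at 24 h and 4.18 and 4.40 FPKM at 48 h, where the mean FPKM was 2.52-fold higher but the difference on log2(FPKM + 1), 0.97, was short of 2-fold.

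In the Nodal pathway 1 of 11 genes tested rose and 0 fell, where 2.52% and 5.2% of all genes tested did, with a median of 0.40. The riser was the inhibitor Lefty1. Among the receptors, Acvr2b was at 0.88, Acvr1b at 0.41 and Acvr2a at -0.07. Of the proteases that cut the Nodal precursor, Furin was at -0.63 and Pcsk6 at -0.73. The transducers Smad2 and Smad3 were at -0.25 and 0.40, the co-repressor Skil at 0.89 and the inhibitor Smad7 at -0.31. None of these reached 2-fold. Nodal itself and Lefty2 are not among the genes of the table used here.

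Genes that ERK signalling induces differed in direction. Of 17 tested, 0 rose and 4 fell, with a median of -0.20. Those that fell were the phosphatases Dusp4, from 47.1 and 43.8 to 13.7 and 14.6 FPKM (-1.62), and Dusp5, from 37.5 and 38.6 to 12.3 and 12.4 FPKM (-1.54), the AP-1 subunit Fosl1, from 9.18 and 9.87 to 2.24 and 2.67 FPKM (-1.61), and Phlda1, from 27.8 and 30.7 to 4.04 and 4.67 FPKM (log2 difference -2.5, SE 0.0844, adjusted p 2.79e-12). The cytoplasmic ERK phosphatase Dusp6 was higher at 77.6 and 86.3 FPKM at 24 h and 117 and 119 FPKM at 48 h (0.52, short of 2-fold). The Sprouty feedback inhibitors Spry1, Spry2 and Spry4 were at -0.20, -0.28 and -0.39, and Egr1 at -0.15 did not pass.

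LIF acts through its receptor, gp130 and Stat3. Of 14 genes of this branch tested, 9 fell and 0 rose, with a median of -1.09, and 3 of the 9 were the naive factors Klf4, Klf5 and Tfcp2l1. Socs3, the feedback inhibitor that Stat3 induces, read 8.76 and 9.67 FPKM at 24 h and 3.53 and 3.78 FPKM at 48 h (log2 difference -1.13, SE 0.0709, adjusted p 2.49e-09). The receptor gene Lifr read 5.78 and 5.40 FPKM at 24 h and 1.42 and 1.97 FPKM at 48 h (log2 difference -1.30, SE 0.0851, adjusted p 4.33e-09). Both were lower in each 48 h library than in either 24 h library, and 82.0% of all genes tested had no overlap between the times. Bcl3 fell from 7.17 and 7.69 to 1.08 and 1.02 FPKM (-2.04) and Junb from 20.5 and 21.3 to 5.66 and 4.95 FPKM (-1.80), with Pim3 at -1.05 and Icam1 at -1.05. Stat3 was at -0.86 and gp130, encoded by Il6st, at -0.57, short of 2-fold, while Pim1 was higher at 0.41.

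Of 9 WNT target genes tested, 1 rose and 1 fell, where 2.52% and 5.2% of all genes tested did, with a median of 0.02. The targets Sp5, T, Cdx1, Cdx2 and Wnt3 are not among the genes of the table used here. Tcf7, a transcriptional effector of WNT, rose from 19.8 and 19.5 to 41.2 and 41.5 FPKM (log2 difference 1.04, SE 0.0485, adjusted p 9.3e-11), and Notum, a secreted WNT deacylase, fell from 1.99 and 2.21 to 0.0418 and 0.237 FPKM (-1.45). Axin2, the feedback target most often read for this pathway, was lower at 7.51 and 6.91 FPKM at 24 h and 3.09 and 3.61 FPKM at 48 h, where the mean FPKM was 2.15-fold lower but the difference on log2(FPKM + 1), -0.92, was just short of 2-fold. In the BMP pathway 3 of 14 tested fell and 0 rose, with a median of -0.22. The ligand Bmp4 fell from 9.30 and 10.01 to 2.64 and 1.88 FPKM (log2 difference -1.72, SE 0.099, adjusted p 9.46e-10), the target Id2 from 36.9 and 43.1 to 17.5 and 18.7 FPKM (-1.10) and the antagonist Nog from 2.10 and 2.67 to 0.534 and 0.645 FPKM (-1.09), whereas Id1 was at -0.15 and Id3 at 0.05. Notch genes went the other way, with 3 of 9 tested risen, 0 fallen and a median of 0.69. The ligand gene Dll3 rose from 2.12 and 1.98 to 11.1 and 10.2 FPKM (log2 difference 1.93, SE 0.0808, adjusted p 2.93e-11), the ligand Jag2 from 3.63 and 3.30 to 8.31 and 8.16 FPKM (1.05) and the receptor Notch3 from 6.42 and 5.52 to 24.9 and 23.5 FPKM (log2 difference 1.86, SE 0.0712, adjusted p 1.08e-11). The Notch target Hes1 was at -0.45, so that ligands and a receptor were higher while this target was lower, short of 2-fold.

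Genes of retinoic acid signalling matter here because the treated arms carry a receptor agonist. In Con, 1 of 14 tested rose and 2 fell, where 2.52% and 5.2% of all genes tested did, with a median of -0.38. Cyp26a1, which degrades retinoic acid and is a target of its receptors, fell from 4.59 and 4.93 to 1.05 and 0.67 FPKM (log2 difference -1.64, SE 0.0903, adjusted p 5.77e-10). The synthesis enzyme Aldh1a3 fell from 2.71 and 2.28 to 0.251 and 0.442 FPKM (-1.38), and the binding protein Crabp2 rose from 4.96 and 4.92 to 12.4 and 12 FPKM (log2 difference 1.15, SE 0.0939, adjusted p 4.95e-08). The receptors Rara, Rarg and Rxra were at -0.47, -0.87 and -0.84, each passing the adjusted p below 2-fold.

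Genes of rapid response and of adhesion were mostly lower at 48 h. Among immediate early genes, which are switched on within minutes of a stimulus or of handling, 6 of 14 tested fell and 0 rose, with a median of -0.83. Fos went from 8.52 and 10.1 to 2.63 and 3.47 FPKM (log2 difference -1.35, SE 0.109, adjusted p 4.56e-08), Fosb from 2.02 and 2.26 to 0.314 and 0.358 FPKM (-1.23), Nr4a1 from 25.9 and 24.8 to 7.10 and 7.39 FPKM (-1.68) and Klf6 from 33.5 and 32.2 to 12.6 and 11.9 FPKM (-1.36). Jun, at -0.22, and Ier2, at -0.48, did not reach 2-fold, and Btg2 was higher at 0.76.

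Yap and Tead are the coactivator and DNA-binding partner that report attachment and tension. In a list of their targets that also holds the factors Tead1 and Tead2, 6 of 14 tested fell and 1 rose, with a median of -0.74. Ctgf, the best known of these targets, read 249 and 267 FPKM at 24 h and 54.1 and 58.4 FPKM at 48 h (log2 difference -2.18, SE 0.0526, adjusted p 1.21e-13). Ankrd1, a nuclear ankyrin repeat protein, read 49.9 and 47.9 FPKM at 24 h and 9.98 and 10.4 FPKM at 48 h (log2 difference -2.16, SE 0.0632, adjusted p 7.19e-13), and Cyr61 157 and 165 FPKM at 24 h and 64.2 and 65.3 FPKM at 48 h (log2 difference -1.30, SE 0.0431, adjusted p 2.27e-12). All 3 lay lower in both 48 h libraries, with no overlap, as the times did not overlap in 82.0% of all genes tested. The receptor kinase Axl was at -1.73, the kinase Lats2 at -1.22 and Tead1 at -1.11. Its paralogue Tead2 was the member that rose, from 9.29 and 10.2 to 34.1 and 31.5 FPKM (log2 difference 1.65, SE 0.0491, adjusted p 7.99e-13), and Yap1 itself was at 0.25.

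The sequence before the start of 3 genes that fell is shown because it holds letters that Tead or AP-1 factors are known to read and, in Nppb, a TATA box. Each is the 250 bases before the RefSeq start in GRCm38.p6, given 5′ to 3′ on the strand of the gene, with matches to any of 7 searched motifs in capitals. The window of Nppb lies at chr4:147985650-147985899 on the plus strand, that of Ankrd1 at chr19:36119845-36120094 on the minus strand and that of Plaur at chr7:24462233-24462482 on the plus strand, and the GENCODE start of Nppb falls inside its window.
Nppb: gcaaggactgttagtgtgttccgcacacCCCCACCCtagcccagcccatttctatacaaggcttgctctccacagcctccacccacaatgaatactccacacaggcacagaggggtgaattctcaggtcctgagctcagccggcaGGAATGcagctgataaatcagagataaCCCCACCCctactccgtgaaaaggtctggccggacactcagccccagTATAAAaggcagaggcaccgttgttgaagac
Ankrd1: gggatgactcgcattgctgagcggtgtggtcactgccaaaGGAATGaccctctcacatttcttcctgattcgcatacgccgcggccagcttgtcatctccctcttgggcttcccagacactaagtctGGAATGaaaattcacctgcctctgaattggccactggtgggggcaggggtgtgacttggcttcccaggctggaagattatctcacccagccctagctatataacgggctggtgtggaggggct
Plaur: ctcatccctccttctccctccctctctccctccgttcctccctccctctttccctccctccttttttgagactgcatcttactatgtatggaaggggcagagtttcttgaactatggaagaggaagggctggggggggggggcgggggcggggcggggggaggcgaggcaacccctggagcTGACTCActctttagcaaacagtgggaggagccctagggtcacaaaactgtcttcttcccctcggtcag
In Nppb the capitals mark, in order, CCCCACCC (Klf), GGAATG (Tead, beginning 105 bases before the start), a second CCCCACCC and TATAAA (31 bases before the start). In Ankrd1 both matches are GGAATG (Tead, 210 and 123 bases before the start), and in Plaur the match is TGACTCA (AP-1, 69 bases before the start). The motifs were CATTCC for Tead, TGANTCA for AP-1, GGGTGNGG for Klf, AAGGTCA for Esrrb, CACGTG for an E-box, TCACNCCAC for Srebp and TATAAA for a TATA box, searched on both strands, where the Klf and Srebp letters can overlap. Windows of 300 bases, with the 50 bases after the start included, were at hand for 8472 of the genes tested (79.6%). TATAAA was found in 6.28% of all windows, 13.7% of the 409 windows of genes that fell and 6.22% of the 193 windows of genes that rose. For AP-1 the shares were 4.18%, 7.82% and 2.07% in the same order, for Tead 11.4%, 14.4% and 13.47%, for Klf 20.2%, 27.1% and 26.4%, for Esrrb 2.96%, 2.69% and 2.07%, and for the E-box 10.7%, 7.34% and 7.25%. These are counts of letters in a window and carry no test. The sequences shown were picked for their matches. Among other genes that fell, the windows of Htra1 and Pla2g7 held 0 matches to the searched motifs. That of Klf4 held only an E-box and that of Esrrb only a Klf match.

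Genes of mesenchymal cells and of the matrix were lower at 48 h. Of 15 mesenchymal genes tested, 7 fell and 0 rose (median -0.99). The intermediate filament gene Vim read 141 and 154 FPKM at 24 h and 43.9 and 49.98 FPKM at 48 h (log2 difference -1.63, SE 0.0756, adjusted p 8.7e-11). Itga5, the fibronectin receptor subunit, read 73.4 and 67.7 FPKM at 24 h and 15.9 and 15.9 FPKM at 48 h (log2 difference -2.08, SE 0.0541, adjusted p 2.13e-13), and the hyaluronan receptor Cd44 26.6 and 26.2 FPKM at 24 h and 7.13 and 7.88 FPKM at 48 h (log2 difference -1.69, SE 0.0719, adjusted p 3.41e-11). Of 18 genes of the basement membrane and its receptors, 8 fell and 0 rose (median -0.96), among them Fn1, which encodes fibronectin, from 121 and 97.2 to 46.9 and 44.2 FPKM (-1.23), the nidogen Nid1, from 36 and 29.4 to 9.06 and 9.20 FPKM (-1.73), the type IV collagen genes Col4a1 (-1.11) and Col4a2 (-1.59), and Sparc, from 353 and 366 to 99.1 and 108 FPKM (-1.79). Lama5 was higher at 0.45, short of 2-fold, and Itga6 at 0.09 did not pass. The perlecan gene Hspg2, a very long transcript, fell at -1.14 but differed between the 24 h replicates, at 51.5 and 33.8 FPKM.

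Fibroblast genes, the markers of the feeder layer, moved with these groups. Of 17 tested, 12 fell and 1 rose (median -1.19). The summed level of all 20 in the table was 802 and 778 FPKM at 24 h and 229 and 237 FPKM at 48 h, and in the treated arms it lay between 635 and 767 FPKM at 24 h and between 247 and 291 FPKM at 48 h. Col1a1, the main collagen gene of fibroblasts, read 77.7 and 69.8 FPKM at 24 h and 15.1 and 15.7 FPKM at 48 h (log2 difference -2.19, SE 0.0572, adjusted p 2.29e-13). Acta2, smooth muscle actin, read 411 and 430.0 FPKM at 24 h and 114 and 121 FPKM at 48 h (log2 difference -1.83, SE 0.0528, adjusted p 6.64e-13), and Lox, which crosslinks collagen, 99.4 and 93 FPKM at 24 h and 15.4 and 16.6 FPKM at 48 h (log2 difference -2.52, SE 0.0588, adjusted p 1.08e-13). Both 24 h libraries were above both 48 h libraries in each, where 82.0% of all genes tested had no overlap in one direction or the other. Postn was at -1.96, Thy1 at -1.42 and Col1a2 at -1.60, while Col3a1 was lower at 1.92 and 1.80 FPKM at 24 h and 0.717 and 0.847 FPKM at 48 h, where the mean FPKM was 2.38-fold lower but the difference on log2(FPKM + 1), -0.68, was short of 2-fold. Lum, Fap and S100a4 were at or near 0, with at most 0.348 FPKM in any Con library. Dcn, a matrix proteoglycan, rose from 0.479 and 0.521 to 2.14 and 2.06 FPKM (log2 difference 1.05, SE 0.0621, adjusted p 1.33e-09) and Twist1 was at 0.30. Feeders left after the attachment step and fewer transcripts in the ESC-derived cells cannot be told apart in bulk RNA, where fewer cells of a type and less RNA per cell look alike, and the part of fibroblasts in the falls of matrix, Yap and mesenchymal genes was not tested.

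Epithelial genes changed in both directions. Of 14 tested, 2 rose and 2 fell, where 2.52% and 5.2% of all genes tested did, with a median of -0.06. Beside Cldn7, the splicing regulator Esrp1 rose from 7.51 and 6.96 to 16 and 15.8 FPKM (log2 difference 1.04, SE 0.0573, adjusted p 5.72e-10). Krt19, a keratin, fell from 21.1 and 22.6 to 3.61 and 3.18 FPKM (log2 difference -2.38, SE 0.0957, adjusted p 1.84e-11) and the claudin Cldn4 from 103 and 114 to 52.5 and 53.8 FPKM (-1.02). E-cadherin, encoded by Cdh1, was at 0.26 and Epcam at 0.61, both higher and short of 2-fold.

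**Figure D3:**
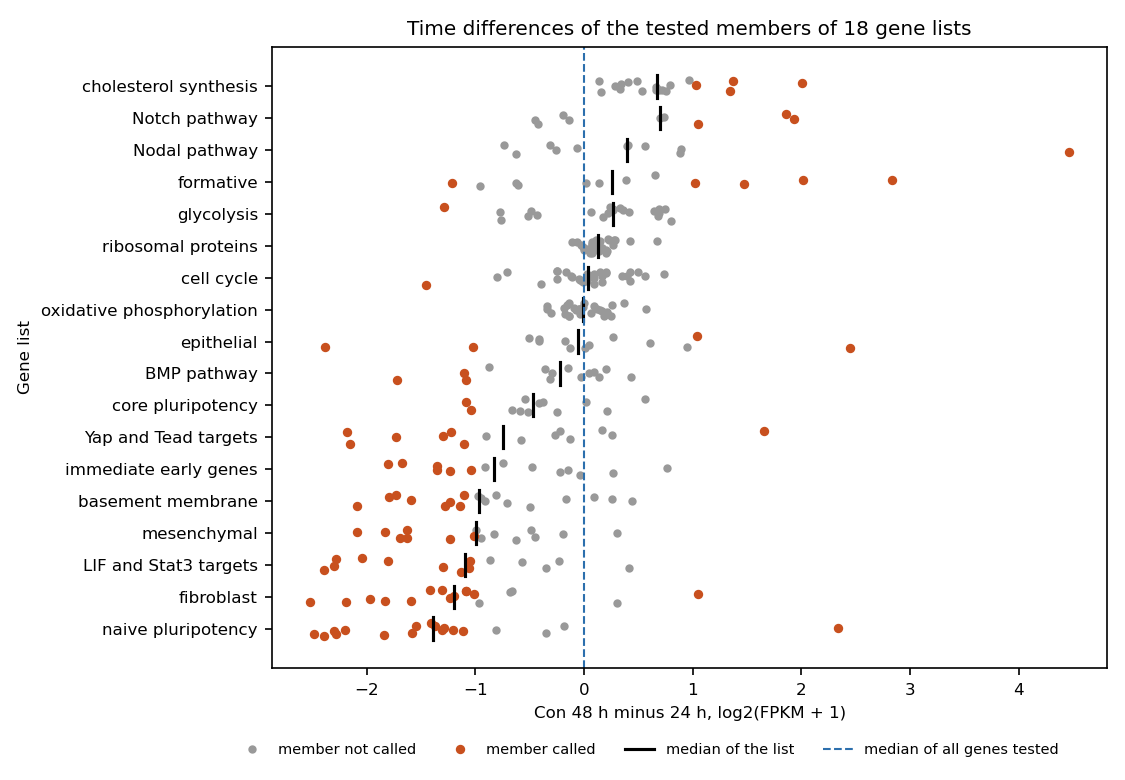
Each point is a tested member of a gene list, placed by its log2 difference of 48 h minus 24 h in Con, orange where called, with a bar at the median of the list and a dashed line at the median of all genes tested. The medians run from 0.69 for the Notch pathway to -1.39 for naive pluripotency, and cell cycle, ribosomal and oxidative phosphorylation genes sit near the dashed line.

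Few markers of germ layers or of extraembryonic tissue were higher at 48 h, and most that were called fell. Of the streak and early mesoderm genes in the table, Eomes was at 2.25 and 1.93 FPKM at 24 h and 1.26 and 1.35 FPKM at 48 h (-0.42) and Kdr at 1.21 and 1.29 FPKM at 24 h and 0.15 and 0.21 FPKM at 48 h (-0.93). Both were lower by the adjusted p, as were 33.6% of all genes tested, but short of 2-fold, so neither was called (median -0.68). Of 7 neural genes tested (median 0.12), Irx3 rose from 1.14 and 1.37 to 7.70 and 6.93 FPKM (log2 difference 1.88, SE 0.109, adjusted p 9.66e-10), Sox21 fell from 3.70 and 3.24 to 0.437 and 0.6 FPKM (-1.56) and Ncam1 fell from 7.10 and 6.77 to 2.18 and 1.90 FPKM (-1.38), while Pax6 stayed at or below 0.422 FPKM in every library. Of 19 genes of extraembryonic endoderm 3 fell and 0 rose (median -0.17), and the 3 were the matrix genes Sparc, Col4a1 and Col4a2 already named. The defining factors Gata4, Gata6, Sox17 and Foxa2 were at no more than 0.863 FPKM in any Con library, with Gata4 at 0.3 and 0.287 FPKM at 24 h and 0.863 and 0.742 FPKM at 48 h (0.48). Of 8 trophoblast genes (median -0.42), Tead4, which sets up that lineage, fell from 14.8 and 14 to 1.31 and 1.74 FPKM (log2 difference -2.61, SE 0.0796, adjusted p 1.03e-12) and Gata3 fell from 5.84 and 6.07 to 0.721 and 0.549 FPKM (log2 difference -2.09, SE 0.0717, adjusted p 3.26e-12). Of 8 gonadal genes tested (median 0.06), 0 rose and the matrix gene Bgn fell from 29.1 and 28.7 to 7.70 and 8.04 FPKM (-1.75). Among genes of the 2-cell-like state 0 of 4 tested were called (median 0.45). By the adjusted p alone 3 were higher and 0 lower, against 32.4% and 33.6% of all genes tested. No member averaged more than 1.30 FPKM over the Con libraries, where the added 1 makes 2-fold hard to reach. Their summed level in Con was 2.64 and 2.86 FPKM at 24 h and 4.32 and 4.41 FPKM at 48 h. Zscan4b, Zscan4f and Usp17la share reads with near-identical copies and are uncertain.

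Cholesterol synthesis was the metabolic list that moved furthest upward. Of 20 genes tested, 4 rose and 0 fell, and 19 passed the adjusted p in the higher direction against 32.4% of all genes, with a median of 0.67. Dhcr7, an enzyme of the last steps of the pathway, read 5.23 and 5.51 FPKM at 24 h and 15.2 and 15.6 FPKM at 48 h (log2 difference 1.37, SE 0.0631, adjusted p 8.56e-11). Insig1, the sterol sensor that restrains it, read 12.2 and 11.7 FPKM at 24 h and 32.1 and 31.3 FPKM at 48 h (log2 difference 1.34, SE 0.0466, adjusted p 3.68e-12). Both were higher in each 48 h library, where 82.0% of all genes tested had no overlap between the times. Idi1, an isomerase of the isoprenoid branch, rose from 10.7 and 10.2 to 21.6 and 23.2 FPKM (1.03). Hmgcs1, which makes the precursor of mevalonate, was at 22.7 and 24.3 FPKM at 24 h and 45.6 and 48 FPKM at 48 h (log2 difference 0.97, SE 0.0435, adjusted p 6.53e-11) and just under 2-fold, and Mvk at 0.14 was the gene that did not pass. The 250 bases before the RefSeq start of Hmgcs1, a known target of Srebp, at chr13:119690101-119690350 on the plus strand of GRCm38.p6, are shown with the searched motifs in capitals.
Hmgcs1: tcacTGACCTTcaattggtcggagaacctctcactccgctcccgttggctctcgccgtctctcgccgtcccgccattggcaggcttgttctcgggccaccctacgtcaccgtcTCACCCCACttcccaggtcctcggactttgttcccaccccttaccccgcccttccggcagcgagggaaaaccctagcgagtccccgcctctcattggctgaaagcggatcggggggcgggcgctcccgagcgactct
The first capitals, TGACCTT, are the Esrrb letters on the other strand (246 bases before the start) and the second, TCACCCCAC, those of Srebp (137 bases before the start), which are in 1.03% of all windows, 1.04% of windows of genes that rose and 0.978% of those that fell.

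Other parts of energy metabolism and growth stayed closer to the median of all genes. Of 21 glycolysis genes, 12 passed the adjusted p in the higher and 6 in the lower direction, against 32.4% and 33.6% of all genes tested. In this list 0 rose and 1 fell, where 2.52% and 5.2% of all genes tested did, and the median was 0.26. The fall was Pfkp, a phosphofructokinase, from 5.64 and 5.56 to 1.71 and 1.70 FPKM (log2 difference -1.29, SE 0.0597, adjusted p 9e-11). The glucose transporters Slc2a1 and Slc2a3 were both at -0.77, while Ldha was at 0.69 and Tpi1 at 0.74. Gapdh, whose pseudogenes make its reads uncertain, read 51.1 and 69.5 FPKM at 24 h and 85.7 and 109 FPKM at 48 h. Of 17 hypoxia genes (median -0.12) 1 rose, Ddit4 from 26.5 and 25.4 to 59.9 and 57.8 FPKM (1.15), and 2 fell, Adm (-1.2) and Bhlhe40 (-1.02). None of 29 oxidative phosphorylation genes was called, with a median of -0.01, nor were any of 34 ribosomal protein genes, with a median of 0.13 and reads shared with pseudogenes. Of 32 cell cycle genes 1 fell and the median was 0.03. That gene was cyclin D3, Ccnd3, from 29.5 and 31.1 to 10.03 and 10.8 FPKM (log2 difference -1.46, SE 0.0477, adjusted p 2.1e-12). Mki67 was at -0.04, Top2a at 0.17, Pcna at 0.09 and Myc at 0.14, while the anaphase activator Cdc20 was lower at 519 and 530.1 FPKM at 24 h and 294 and 309 FPKM at 48 h (-0.80, short of 2-fold).

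The X chromosome held the highest share of genes that rose. Of its 351 genes tested 30 rose (8.55%) and 21 fell (5.98%), while of 10270 autosomal genes 2.32% rose and 5.16% fell, and on single autosomes the share that rose lay between 0.940% and 3.93%. The share passing the adjusted p in the higher direction was 41.6% on the X and between 27.8% and 40.7% on single autosomes. The median difference of X-linked genes was 0.05, inside the range of single autosomes, -0.039 to 0.098. Fndc3c1 rose from 1.01 and 1.01 to 9.22 and 8.47 FPKM (log2 difference 2.29, SE 0.0793, adjusted p 3.53e-12). Pim2, a kinase that favours growth, rose from 70.1 and 73.8 to 241.3 and 247 FPKM (log2 difference 1.75, SE 0.0449, adjusted p 1.99e-13). Mid1ip1 rose from 8.87 and 8.35 to 35.6 and 38.4 FPKM (1.98), Rragb, a GTPase of amino acid sensing, from 5.56 and 4.91 to 21.5 and 23 FPKM (1.90), and Dusp9, an ERK phosphatase, from 68.2 and 70.5 to 146 and 142 FPKM (1.04). Among those that fell were Porcn, which lipidates WNT proteins, from 6.41 and 6.72 to 0.52 and 0.633 FPKM (log2 difference -2.26, SE 0.0957, adjusted p 3.23e-11), Nup62cl, from 49.9 and 50.6 to 10.9 and 10.9 FPKM (-2.11), the protease inhibitor Timp1, from 163 and 176 to 40.8 and 47.6 FPKM (-1.92), and the actin-binding Tmsb4x, from 377 and 425 to 117 and 119 FPKM (-1.75). In Vc 31 X-linked genes rose (8.83%) against 2.59% of autosomal genes, in AM580 25 (7.12%) against 2.99% and in V580 23 (6.55%) against 3.06%. Xist is not among the genes of the table used here, and neighbouring genes are not independent, so that the shares by chromosome carry no test.

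**Figure D4:**
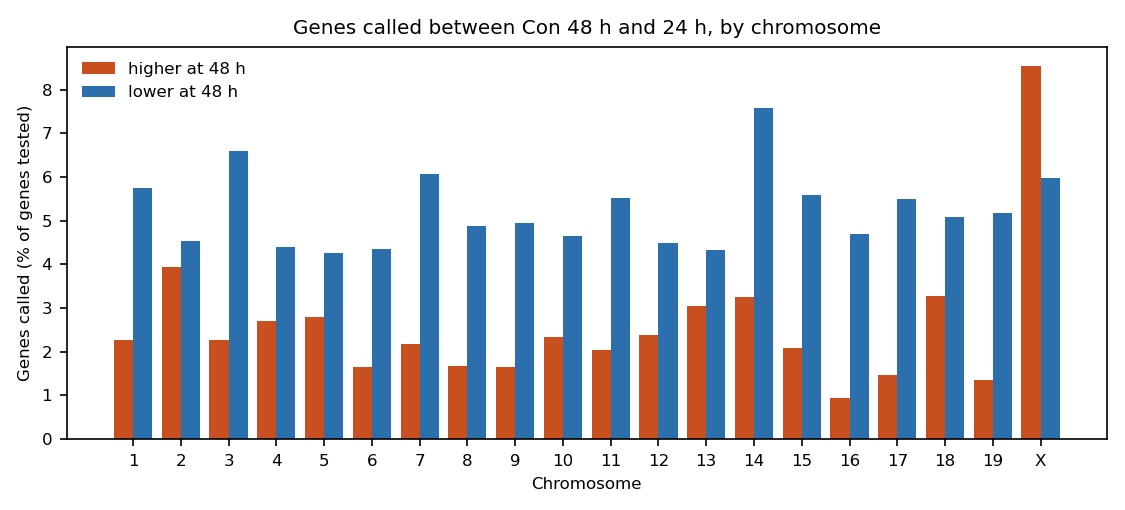
Bars give, for each chromosome, the percentage of its tested genes that rose (orange) and that fell (blue) between 24 h and 48 h in Con. The X stands at 8.55% risen, where the highest autosome is at 3.93%.

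The same interval was also sampled in the treated arms. From 24 h to 48 h, 869 genes were called in Vc (8.16%), 784 in AM580 (7.37%) and 853 in V580 (8.01%), from libraries other than those of Con. Of these, 703 in Vc were called in the same direction in Con, which is 85.5% of the 822 Con calls and 80.9% of those of Vc, and 0 in the opposite direction. In AM580 483 were shared (58.8% of Con calls, 61.6% of AM580 calls) with 2 opposite, and in V580 514 (62.5% and 60.3%) with 3 opposite. Over the 268 genes that rose in Con the median log2 difference was 1.25 in Con, 1.31 in Vc, 1.03 in AM580 and 1.05 in V580, and over the 554 that fell it was -1.40, -1.39, -1.14 and -1.21. The Con values of these genes were used to choose them, so the first value of each set is a description.

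Whether a time difference differed from that of Con was tested by the interaction in the same model. In Vc 4 genes were called (0.0376%), 1 with a higher (0.00939%) and 3 with a lower difference than in Con (0.0282%). In AM580 202 genes were called (1.9%), 150 higher (1.41%) and 52 lower (0.489%), and in V580 195 (1.83%), 124 higher (1.16%) and 71 lower (0.667%). All 3 tests share the 4 Con libraries. The 822 Con calls were chosen on the Con difference that the interaction subtracts, so their counts are a description. Of these genes, 2 had a called interaction with Vc, 64 with AM580 and 63 with V580. None of the 12 largest falls had one, and of the 12 largest rises Lefty1 had it in all 3 arms, Sema6a in AM580 and V580, and Cldn7 in V580. For Lefty1 the Vc libraries read 1.01 and 1.07 FPKM at 24 h and 93.2 and 94.2 at 48 h, so that the 48 h level was close to that of Con and the 24 h level lower (interaction 1.08 on the log2 scale, SE 0.0629, adjusted p 6.82e-07). In AM580 the same gene read 10.03 and 9.44 FPKM at 24 h and 492 and 507 at 48 h, with an interaction of 1.08 on the log2 scale, SE 0.0629, adjusted p 1.36e-08. In V580 it read 2.21 and 2.01 and then 344 and 357 FPKM (2.36). Sema6a, which rose from 2.25 and 2.28 to 19.3 and 19.4 FPKM in Con, read 0.923 and 0.732 FPKM at 24 h and 1.79 and 1.68 at 48 h in AM580 (interaction -2.06 on the log2 scale, SE 0.0953, adjusted p 1.26e-09) and 0.503 and 0.546 and then 0.82 and 0.948 FPKM in V580 (-2.33). Cyp26a1 fell in Con and rose in AM580, from 22.4 and 22.4 to 87.4 and 93.9 FPKM (interaction 3.61 on the log2 scale, SE 0.128, adjusted p 6.41e-11), and in V580, from 22.4 and 21.5 to 119 and 122.8 FPKM. Foxd3 was at 43.6 and 44.6 FPKM at 24 h and 27.1 and 30.4 FPKM at 48 h in Con, and in AM580 it went from 26 and 25.2 to 1.77 and 2.29 FPKM. Hoxb9, a trunk Hox gene, read 2.53 and 2.09 FPKM at 24 h and 0.899 and 0.664 FPKM at 48 h in Con, and in AM580 it went from 2.94 and 2.19 to 25.3 and 24.9 FPKM. The core factor Pou5f1 was lower over time in each arm, with a log2 difference of -0.67 in Con, -0.80 in Vc, -1.78 in AM580 and -1.66 in V580, and the interaction was called for AM580 (-1.11) and just short of 2-fold for V580 (-1.0).

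**Figure D5:**
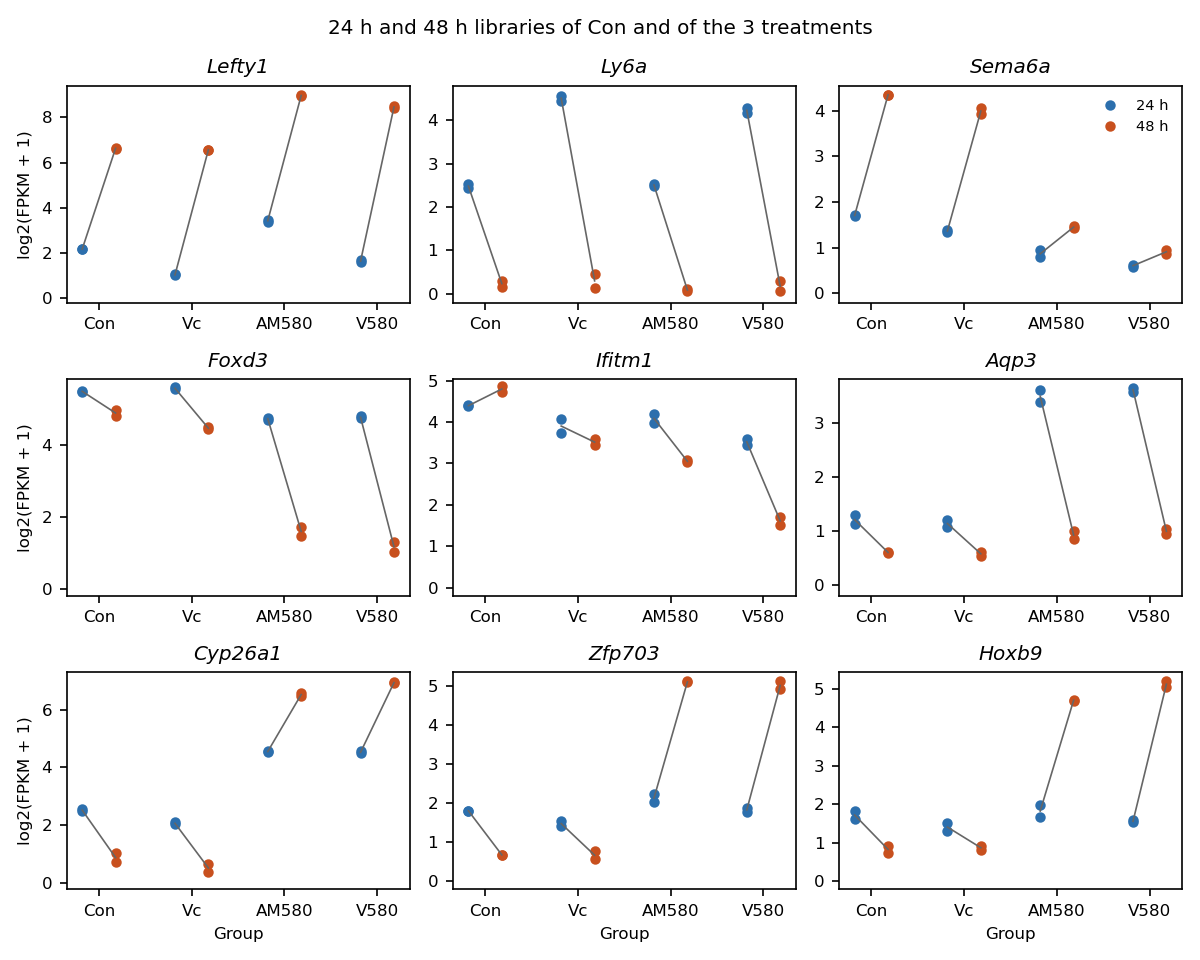
log2(FPKM + 1) of 9 genes in the 16 libraries, blue for 24 h and orange for 48 h, with a line joining the means, for Con, Vc, AM580 and V580. Lefty1 rises in every arm, Sema6a rises in Con and Vc and stays below 2 in AM580 and V580, and Cyp26a1, Zfp703 and Hoxb9 lie lower at 48 h in Con and Vc and higher in AM580 and V580.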

How the data were processed

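RNA-seq libraries were grouped by their labels, and 4 Con libraries (2 at 24 h, 2 at 48 h) were compared within the 16 libraries of 8 groups. The authors deposited FPKM per gene symbol in a table of 13682 genes and 31 libraries, without counts, and all its columns were matched to samples (0 were not). The submitters' processing notes name Trim Galore, FastQC, HISAT2, SAMtools, featureCounts and RSEM with mm10, and which of these gave the FPKM is not given in the sources used here. The deposited lengths of genes from a count table were used to check the scale. Multiplied by gene length, 97.0% to 97.1% of values were whole reads within 0.02, and the factor per library followed size factors (highest over lowest ratio 1.05) more closely than read totals (1.31).

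Here log2(FPKM + 1) was tested with limma 3.58.1 (trend) in R 4.3.3, in one model of 8 group means, for the 10644 genes that reached 1 FPKM in 2 or more libraries. That left 8 residual degrees of freedom, shared by all groups. Genes were called at a Benjamini-Hochberg adjusted p below 0.05 and 2-fold, over all genes tested, and interactions likewise. The added pseudocount of 1 understates the change of genes with low FPKM. Tables were made with pandas 2.3.3 in Python 3.11.15. Positions came from GENCODE vM21 (GRCm38), promoter sequences from RefSeq (GRCm38.p6).

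The members and the 40 gene lists were chosen with earlier results of these data known. Lists overlap, and 507 tested genes are in at least 1 of them. Named one by one were the 12 largest rises and falls whose higher time averaged 5 FPKM or more and whose times did not overlap, marked genes of each list, up to 3 called members of a list in each direction and the 3 largest interactions in each direction. Other list members and X-linked genes were named after their values were seen, and some genes that these rules name are not reported here. Lists of Y-linked and mitochondrial genes had 0 members in the table. Scripts were tested on simulated data. Alternatives were other pseudocounts, filters and scalings, no fold minimum, the 4 Con libraries alone, a replicate block, leaving out each Con library, and limma's voom on the recovered reads, the last chosen after seeing the data.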

Additional observations from a re-analysis of the deposited data

Results flagged for a closer look

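Results in which the change from 24 h to 48 h differed between Con and a treated arm, by the interaction term of the limma model, are listed with their sizes. The number of genes was 4 for Vc, 202 for AM580 and 195 for V580, and the 3 comparisons share the Con libraries. In Vc the largest negative value was that of Ly6a, a surface antigen gene, at -1.96 on the log2 scale, SE 0.145, adjusted p 8.11e-06. Con read 4.43 and 4.74 FPKM at 24 h and 0.125 and 0.237 FPKM at 48 h, and Vc 20.8 and 22.6 and then 0.385 and 0.0955 FPKM, so both arms ended near 0 and the Vc libraries began higher. Lefty1 was at 1.08 on the log2 scale, SE 0.0629, adjusted p 6.82e-07. The other genes called in Vc, Kng2 at -1.02 and Mep1b at -1.24, were at 3.06 FPKM or less in every Con and Vc library and were named after their values were seen.

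Among genes with a mean of 5 FPKM or more in at least 1 of the groups compared, those with the most positive values in AM580 were Zfp703 at 4.10, Hoxb9 at 3.77 and Cyp26a1 at 3.61, and those with the most negative were Foxd3 at -2.53, Sema6a at -2.06 and Aqp3 at -1.97. In V580 they were Hoxb9 at 4.46, Zfp703 at 4.32 and Cyp26a1 at 4.04, and Foxd3 at -3.0, Sema6a at -2.33 and Ifitm1 at -2.31. Zfp703, a zinc finger repressor, read 2.49 and 2.5 FPKM at 24 h and 0.608 and 0.588 FPKM at 48 h in Con and 2.41 and 2.69 and then 29.1 and 33.8 FPKM in V580. The water channel gene Aqp3 was low in Con at both times, at 1.45 and 1.2 FPKM at 24 h and 0.523 and 0.519 FPKM at 48 h, and fell in AM580 from 9.50 and 11.2 to 1.00 and 0.808 FPKM. Ifitm1 read 20.1 and 19.9 FPKM at 24 h and 28.2 and 25.5 FPKM at 48 h in Con and 9.94 and 11 and then 1.87 and 2.25 FPKM in V580.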

How the results depend on the processing

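The number of genes called between Con 24 h and 48 h depended on the fold minimum, on the use of recovered reads and on the pseudocount. With a pseudocount of 0.1 it was 1410 (544 higher, 866 lower), with 5 it was 305 (64 higher, 241 lower), without a fold minimum 7028 (3453 higher, 3575 lower), and with voom on recovered reads, chosen after seeing the data, 1509 (603 higher, 906 lower), of which 819 were among the 822. The 4 Con libraries alone gave 822, no filter on low values 822, a filter at 5 FPKM 638, median-ratio scaling 816 and quantile normalization 790 (289 higher, 501 lower). Leaving out each Con library in turn gave 811 to 839 (269 to 275 higher, 536 to 569 lower).

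For the interactions with Vc, AM580 and V580 the counts were 21, 435 and 462 with a pseudocount of 0.1, 1, 67 and 75 with 5, 309, 3721 and 3612 without a fold minimum, and 27, 487 and 517 with voom. With a filter at 5 FPKM, Vc had 2. Leaving out each Con library gave 4 to 5, 198 to 214 and 198 to 203.

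Over all alternatives and named genes, 2193 values kept their direction and their side of the threshold, 73 passed it and 49 missed it under an alternative, and 6 changed sign, each near 0. Under quantile normalization Sox17 was at -0.0037. Leaving out each Con library in turn, Sox17 ran from -0.0058 to 0.108, Rarb from -0.0081 to 0.0772, Ccne1 from -0.0146 to 0.076 and Id3 from -0.0089 to 0.103. The cause was not tested. Groups share replicate numbers. The correlation of deviations of same-numbered Con libraries was 0.058, and over all pairs of groups it lay between -0.42 and 0.21. The lowest value, -0.42, was that of Con and Vc at 24 h. Whether libraries of different groups share anything beyond a number cannot be told from these values. With the replicate block the count was again 822, and the block changed no call of this comparison.

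Depth was 19.8 to 21.96 M reads on listed genes in Con. With 2 libraries a time, the SE of each gene borrows from all 16 libraries.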

Other observations

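Further lists held few called genes, and over all genes tested 2.52% rose and 5.2% fell. Among targets of Atf4, the factor of the amino acid response, 2 of 17 tested rose (median 0.05), Phgdh of serine synthesis from 51.9 and 58 to 132 and 130.1 FPKM (1.24) and Chac1 (1.06), and Cth of the transsulphuration pathway fell from 119 and 125 to 51.4 and 52.4 FPKM (-1.21). Of 12 chaperones of the endoplasmic reticulum 1 fell, Xbp1 (-1.05), and the median was -0.04. Of 11 heat shock genes (median -0.21) the small chaperone Hspb1 fell from 772 and 884 to 173 and 191 FPKM (log2 difference -2.18, SE 0.0693, adjusted p 1.56e-12), while Hspa8 was at -0.38. Of 17 targets of p53 tested (median 0.02), the apoptosis gene Pmaip1 rose from 52.7 and 54 to 146 and 142 FPKM (log2 difference 1.42, SE 0.0488, adjusted p 3.43e-12) and Perp fell from 38 and 41.1 to 18 and 16.47 FPKM (-1.15), and Cdkn1a was at -0.45.

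Of 15 imprinted genes tested (median 0.08), Nnat rose from 8.31 and 8.17 to 27.8 and 25.8 FPKM (log2 difference 1.59, SE 0.0893, adjusted p 7.04e-10) and Grb10 from 8.23 and 7.41 to 18.4 and 18.2 FPKM (1.13), and 0 fell. The oxidative stress gene Hmox1 fell from 287 and 301 to 84.5 and 92.6 FPKM (log2 difference -1.72, SE 0.0509, adjusted p 7.81e-13), the only called gene of 10 in a list of metallothioneins and antioxidant genes (median -0.40). Of 19 lysosome and autophagy genes 0 were called, with a median of -0.31. In a list of endothelial, macrophage and erythroid genes 3 were tested and 2 fell (median -1.16), Cd68, a glycoprotein of macrophage lysosomes, from 43.7 and 41.6 to 8.08 and 8.28 FPKM (log2 difference -2.25, SE 0.0953, adjusted p 3.24e-11), and Lyz2 (-1.16). The defining markers of these cells were at or near 0, with Ptprc at no more than 0.0648 FPKM and Cdh5 at no more than 0.0226 FPKM in any Con library, and Emcn and Hbb-bs listed at 0.

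Gene length moved with the difference between replicates rather than with time. Spearman's rho of length was 0.441 with Con replicate 1 minus replicate 2 at 24 h and 0.118 at 48 h, across 10620 genes that are not independent, and with the time difference it was 0.043 in Con, 0.073 in Vc, 0.0047 in AM580 and 0.031 in V580. The part of this in single long genes was not tested.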
